A study of Mus musculus with 14 samples.

Results

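Immediate early genes were followed as a set of 10 transcripts in mouse liver leukocytes and in whole liver. The set holds Fos, Fosb, Jun, Junb, Jund, Atf3, Egr1, Nr4a1, Ier2 and Dusp1, taken by symbol from the deposited tables of counts and of TPM (transcript abundance per length, scaled to a fixed total). All 10 were found among 48794 genes, and all 10 passed the filter on low counts. The cells were leukocytes carrying CD45, the surface phosphatase of nucleated blood cells, which had been sorted from liver needle biopsies in lots of 2500, 5000, 10000 or 20000 cells with 3 libraries each. The control was bulk liver tissue, with 2 libraries. Both kinds came from WT mice with no treatment; no strain, sex or age is used here. The labels do not say that replicates were separate animals, so each p reflects only how far these samples spread, and that may be technical variation.

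Immediate early genes are switched on within minutes of a stimulus, without new protein synthesis, by kinases that act on factors already bound at their promoters. Their mRNAs are short-lived, so a high level marks recent or continuing transcription. Fos and Jun proteins pair to form AP-1, a factor that reads DNA elements near inflammatory and growth genes. In leukocytes these genes follow antigen, cytokine and adhesion signals, and they are also known to respond to the handling of tissue and cells.

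Total counts ranged from 6723357 to 14496314 over the 12 sorted libraries and were 7605290 and 8034138 in bulk liver. The 10 pan-leukocyte markers, among them Ptprc (the gene of CD45) and Coro1a, summed to 10605.90 to 12110 TPM in sorted libraries and to 91.67 to 108.57 TPM in bulk liver. The 15 hepatocyte markers, among them Alb and Cyp2e1, summed to 168.43 to 260.81 TPM in sorted libraries and to 62742.70 to 63649.20 TPM in bulk liver, so the labels of both kinds held. No defining marker of either list was at 0 in bulk liver. In bulk tissue, fewer cells of a type and less RNA per cell cannot be told apart. The sorted and bulk libraries differ both in cell makeup and in having passed through a cell sort, and these cannot be told apart either.

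On the GRCm38 build (GENCODE M21), Fos (ENSMUSG00000021250) lies at chr12:85473890-85477273 on the + strand with 4 exons, and Nr4a1 (ENSMUSG00000023034) at chr15:101254269-101274795 on the + strand with 8 exons in its longest coding transcript. Jun, Junb, Jund and Ier2 have 1 exon each, which makes 4 of 10 members, against 6.55% of 21709 protein-coding genes in the count table. The median span was 4698.5 bases for the members and 17456 bases for those genes, but the models of Dusp1 (56539 bases), Atf3 (47744) and Nr4a1 (20527) were longer than that median. Sequence before the start site was available from RefSeq (GRCm38.p6) for 8 members. The RefSeq start is that of the GENCODE gene model for Fos and Jun, lies within the model for Nr4a1, Atf3, Dusp1 and Fosb, and lies upstream of it for Junb and Jund, so the Jund window does not adjoin its GENCODE model. The 250 bases before the start are shown for the members with the widest differences from bulk liver, with Fosb and Junb beside Fos and Nr4a1. Capitals mark TGACG on either strand, the core of the cyclic AMP response element that CREB and ATF proteins read, and TATAAA, the TATA box.
Fos chr12:85473640-85473889 (+ strand): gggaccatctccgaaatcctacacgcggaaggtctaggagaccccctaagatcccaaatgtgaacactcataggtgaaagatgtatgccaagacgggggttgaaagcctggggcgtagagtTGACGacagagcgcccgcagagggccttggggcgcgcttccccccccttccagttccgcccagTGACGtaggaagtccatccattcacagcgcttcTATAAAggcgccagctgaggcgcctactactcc
Nr4a1 chr15:101266596-101266845 (+ strand): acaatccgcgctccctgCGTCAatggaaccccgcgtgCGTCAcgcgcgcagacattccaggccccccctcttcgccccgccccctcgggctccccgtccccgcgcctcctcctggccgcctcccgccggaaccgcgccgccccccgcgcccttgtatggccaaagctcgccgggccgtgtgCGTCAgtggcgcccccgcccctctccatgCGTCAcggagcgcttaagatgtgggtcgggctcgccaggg
Fosb chr7:19310046-19310295 (- strand): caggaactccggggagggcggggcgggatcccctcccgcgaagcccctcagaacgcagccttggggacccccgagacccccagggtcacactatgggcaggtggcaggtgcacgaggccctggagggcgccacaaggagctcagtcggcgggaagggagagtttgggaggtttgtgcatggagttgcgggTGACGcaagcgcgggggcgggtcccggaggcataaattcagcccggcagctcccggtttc
Junb chr8:84978749-84978998 (- strand): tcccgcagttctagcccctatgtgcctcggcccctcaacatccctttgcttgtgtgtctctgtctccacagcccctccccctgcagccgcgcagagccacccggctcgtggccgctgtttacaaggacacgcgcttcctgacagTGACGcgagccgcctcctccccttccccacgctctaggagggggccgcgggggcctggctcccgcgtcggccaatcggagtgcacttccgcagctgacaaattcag
The TGACG core, searched on both strands over 250 bases before to 50 after the start, was present in 6 of 8 member windows (Fos, Fosb, Junb, Nr4a1, Atf3 and Dusp1), against 20.8% of 32851 windows of the same length. Nr4a1 held 4 copies, Dusp1 held 3 and Fos held 2, and the Fos TATA box ended 28 bases before the start. Of the Dusp1 copies, those at -143 to -139 and -140 to -136 overlap on opposite strands. The longer palindrome TGACGTCA, which contains the core, was in 1 of 8 member windows (Dusp1) against 1.79% of all windows. TATAAA was in 2 of 8 (Fos and Junb) against 13.6%. The Junb copy lay at bases 1 to 6 from the start, after the 250 bases shown, so it is not upstream of that start. The CArG box, the AP-1 site (TGACTCA or TGAGTCA) and the EGR1 site GCGTGGGCG were in 0 of 8 member windows, against 1.63%, 5.2% and 0.612% of all windows. These matches describe the letters of the windows and show no binding. Sequence outside the windows was not searched, and Egr1 and Ier2 had no window.

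All 10 immediate early genes were higher in sorted leukocytes than in bulk liver. The test was the edgeR quasi-likelihood test on counts with Benjamini-Hochberg adjustment over 16294 genes at 0.05, with library sizes scaled by TMM (trimmed mean of M values). Of all genes tested, 41.8% were called higher and 38.5% lower, so a call by itself is common in this comparison. For all 10 members, each of the 12 sorted libraries lay above both bulk libraries, as did 40.6% of all genes tested. The members' median log2 fold change was 3.09 (2.94 with Fosb at its lower bound), against 0.17 over all genes. Scaled by library totals alone, all genes had a median of 1.37 and every member kept its direction. TPM, like library totals, carry no such scaling, so ratios of TPM are larger than the fitted folds.

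**Figure D1:**
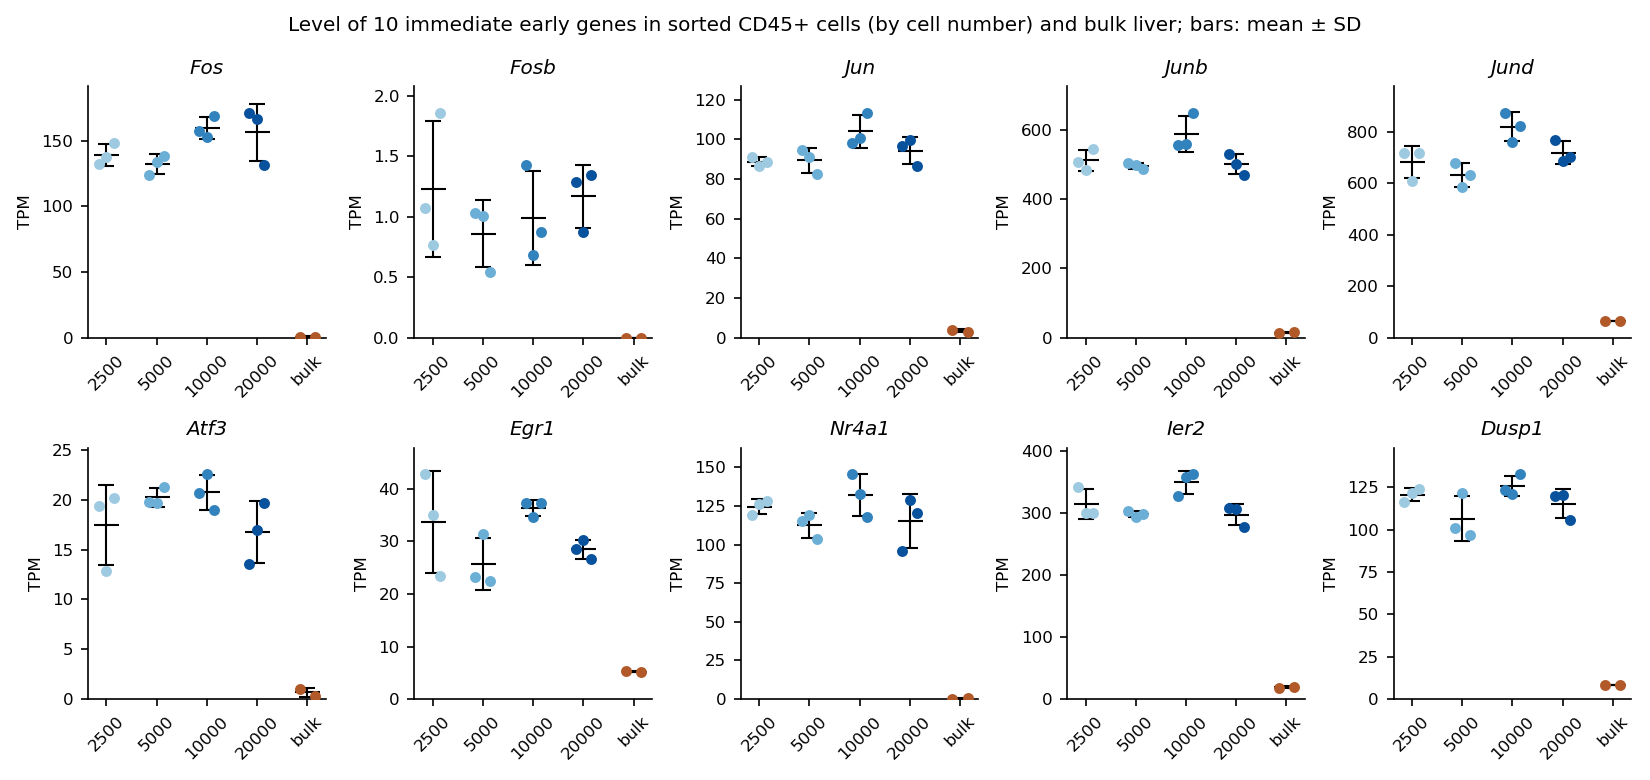
TPM (y axis, from 0, own scale per gene) in every library of sorted CD45+ cells, by cell number, and of bulk liver (x axis). Points are libraries, bars the mean ± SD of 3 sorted or 2 bulk libraries; every sorted point lies above both bulk points in all 10 panels.

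Fos and Nr4a1 stood farthest from bulk liver among members with counts there. Fos, the founding partner of the AP-1 dimer, had 123.96, 143.365 and 171.30 TPM as the lowest, median and highest of 12 sorted libraries, against 0.28 and 0.74 TPM in bulk liver. Behind these stood 1495 to 2811 counts per sorted library, and 3 and 6 counts in bulk liver. The fitted log2 fold change of Fos was 7.28 (SE 0.23, edgeR adjusted p = 2.2e-16), and 7.90 without the second bulk library. Nr4a1, the orphan nuclear receptor that marks recent antigen receptor signalling in lymphocytes and supports Ly6C-low monocytes, had a lowest, median and highest of 95.77, 119.905 and 145.43 TPM in sorted libraries, against 0.20 and 0.42 TPM in bulk liver. The fitted log2 fold change of Nr4a1 was 6.97 (SE 0.20, edgeR adjusted p = 4.1e-17), and 7.69 without the second bulk library. Both genes were thus near the floor of detection in whole liver, at 9 and 13 counts over both libraries.

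Fosb, another Fos-family partner, was the least abundant member. It had 18 to 49 counts and 0.54 to 1.86 TPM per sorted library, with a median of 1.02 TPM, and 0 counts in both bulk libraries. With 3 counts over both bulk libraries taken as the floor, it was at least 7.06-fold higher in sorted cells, and at least 16.2-fold with library totals. Every sorted library held more Fosb counts than the floor. Intervals and floors cover counting error only, since amplified reads without molecular identifiers are not independent molecules.

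The Jun family, which supplies the other partner of AP-1, held the most and the second most abundant members in sorted cells, Jund and Junb. Junb, an activation-linked Jun protein that restrains proliferation, had 470.46, 504.555 and 648.32 TPM as the lowest, median and highest of the sorted libraries, against 13.34 and 14.97 TPM in bulk liver (log2 fold change 3.53, SE 0.10, edgeR adjusted p = 1.7e-17). Jun had 82.26, 92.855 and 113.28 TPM in sorted libraries, against 3.95 and 2.91 TPM in bulk liver (3.07, SE 0.12, edgeR adjusted p = 4.0e-15). Jund, the Jun protein made constitutively in many tissues, had 583.61, 709.565 and 873.61 TPM in sorted libraries, against 65.97 and 64.91 TPM in bulk liver (1.72, SE 0.09, edgeR adjusted p = 5.6e-13). Of the 3 Jun genes, Jund was thus the most abundant and the nearest to bulk liver. Its value is uncertain, because the antisense gene model Gm11175 overlaps it and held 5540 to 8831 counts per sorted library and 692 to 741 in bulk liver, and no source used here says whether reads were counted by strand. Junos, antisense to Jun, held 297 to 620 counts in sorted libraries and 19 to 20 in bulk liver, with the same limit. Prdx2 overlaps Junb on the other strand at 518 to 852 counts in sorted libraries and 698 to 729 in bulk liver.

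Atf3, a stress-induced member of the ATF family that represses inflammatory genes, had 12.85, 19.68 and 22.54 TPM as the lowest, median and highest of the sorted libraries, against 1.00 and 0.35 TPM in bulk liver. The fitted log2 fold change of Atf3 was 3.12 (SE 0.30, edgeR adjusted p = 1.0e-08). With 16 and 6 counts in bulk liver, this value was 4.08 without the first bulk library and 2.61 without the second. Egr1, a zinc-finger factor of the growth response, had 22.39, 30.82 and 42.76 TPM in sorted libraries, against 5.25 and 5.19 TPM in bulk liver. It had the smallest log2 fold change, 0.71 (SE 0.19, edgeR adjusted p = 0.00303), which was 1.91 with library totals.

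Ier2, a small nuclear regulator of the early response, had 277.50, 304.07 and 361.92 TPM as the lowest, median and highest of the sorted libraries, against 18.18 and 19.94 TPM in bulk liver (log2 fold change 2.29, SE 0.09, edgeR adjusted p = 3.9e-15). Dusp1, the phosphatase that switches off p38 and JNK, had 96.73, 120.81 and 132.63 TPM in sorted libraries, against 8.02 and 8.01 TPM in bulk liver (2.09, SE 0.12, edgeR adjusted p = 1.6e-12). These values did not overlap between the groups. The gene model of Dusp1 overlaps Ergic1 on the other strand, which had 284 to 570 counts in sorted libraries and 976 to 993 in bulk liver.

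**Figure D2:**
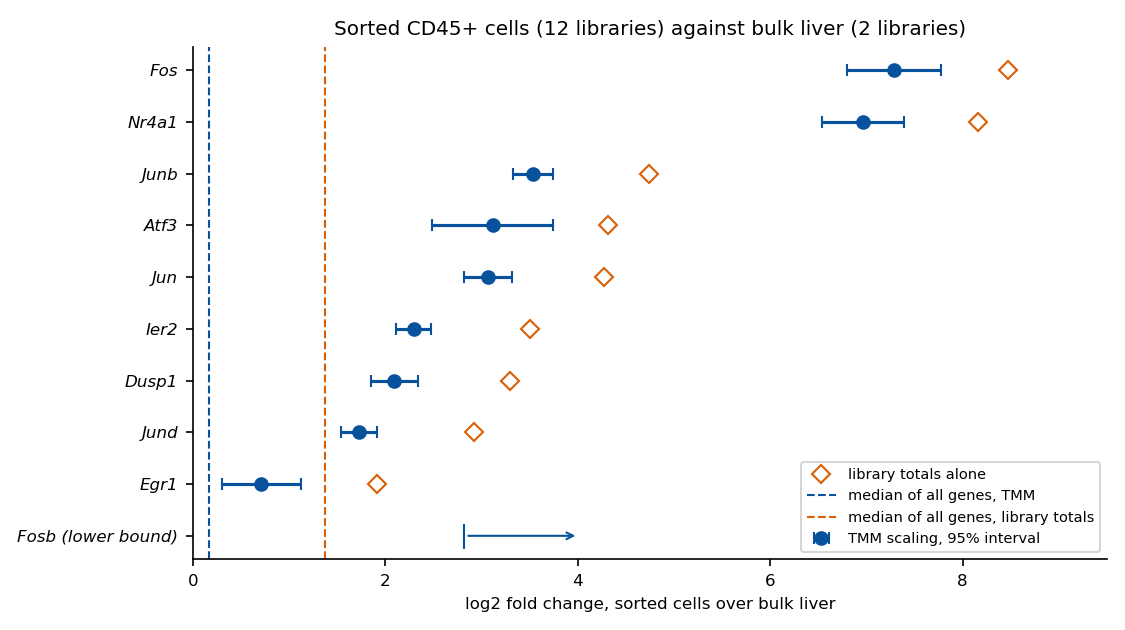
Fitted log2 fold change of sorted cells over bulk liver (x axis) for each member, with 95% intervals under TMM scaling (filled) and values under library totals (open); dashed lines are the medians of all genes, 0.17 and 1.37. Fos and Nr4a1 lie above 6, Egr1 lies lowest, and Fosb is drawn as a lower bound.

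The difference from bulk liver was seen at each cell number, in 4 comparisons that share the bulk libraries. All 10 members were called higher at 2500, 5000, 10000 and 20000 cells, where 40.5%, 40.6%, 40.7% and 41% of all genes were called higher. Fos had log2 fold changes of 7.20, 7.19, 7.31 and 7.44 at the 4 inputs in rising order, and Nr4a1 had 7.01, 6.90, 7.03 and 6.94. Junb had 3.50, 3.49, 3.63 and 3.52. Only the Egr1 call was unsteady among these 40 values: at 5000 cells it was 0.49 (edgeR adjusted p = 0.0471), and 12 of the 22 alternatives run ended that call, with adjusted p up to 0.147 (without the second library of 5000 cells). DESeq2 gave it 0.0789, and leaving out the first or the second bulk library gave 0.103 and 0.119. At 20000 cells Egr1 was 0.64 (edgeR adjusted p = 0.0140), which limma-voom put at 0.0509 and the fit without the second bulk library at 0.0546.

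Per length, the order of the levels differed between the sample kinds. In sorted cells the mean TPM ran Jund 713, Junb 524, Ier2 315, Fos 147, Nr4a1 121, Dusp1 117, Jun 94.05, Egr1 31.1, Atf3 18.8 and Fosb 1.06. The ranges over 12 libraries overlapped for Jund and Junb, for Fos and Nr4a1, for Nr4a1 and Dusp1, for Dusp1 and Jun, and for Egr1 and Atf3. In bulk liver the order was Jund 65.4, Ier2 19.1, Junb 14.2, Dusp1 8.02, Egr1 5.22, Jun 3.43, Atf3 0.675, Fos 0.51 and Nr4a1 0.31, with Fosb listed at 0. The bulk values overlapped for Atf3 and Fos and for Fos and Nr4a1, so the order at that end is not resolved. Among all 48794 genes Fos ranked 1098 by mean TPM in sorted cells and 13429 in bulk liver, and Jund ranked 160 and 1406.

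The 10 members together took 0.208% ± 0.0179 of all TPM in sorted libraries (SD, n = 12) and 0.0117% ± 8.8e-05 in bulk liver (SD, n = 2). Their summed TPM ranged from 2243.57 to 2423.17 at 10000 cells, above every other sorted library (1884.41 to 2133.66), whereas their share of counts at 10000 cells, 0.307% to 0.336%, overlapped that at 20000 cells, 0.283% to 0.319%. Within the 6 AP-1 transcripts the makeup also differed, as a description without a test. Jund made 47.5% ± 1.91 of their summed TPM in sorted libraries and 77.7% ± 0.459 in bulk liver. Junb made 35.0% ± 1.46 in sorted libraries and 16.8% ± 1.46 in bulk liver, and Fos made 9.82% ± 0.766 in sorted libraries and 0.607% ± 0.390 in bulk liver. Jun-family TPM per Fos-family TPM ranged from 7.67 to 10.2 over the sorted libraries and was 112 and 297 in the bulk libraries, where Fos rests on 9 counts. Jund per Junb averaged 1.36 in sorted cells and 4.64 in bulk liver, with the limit given for Jund.

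**Figure D3:**
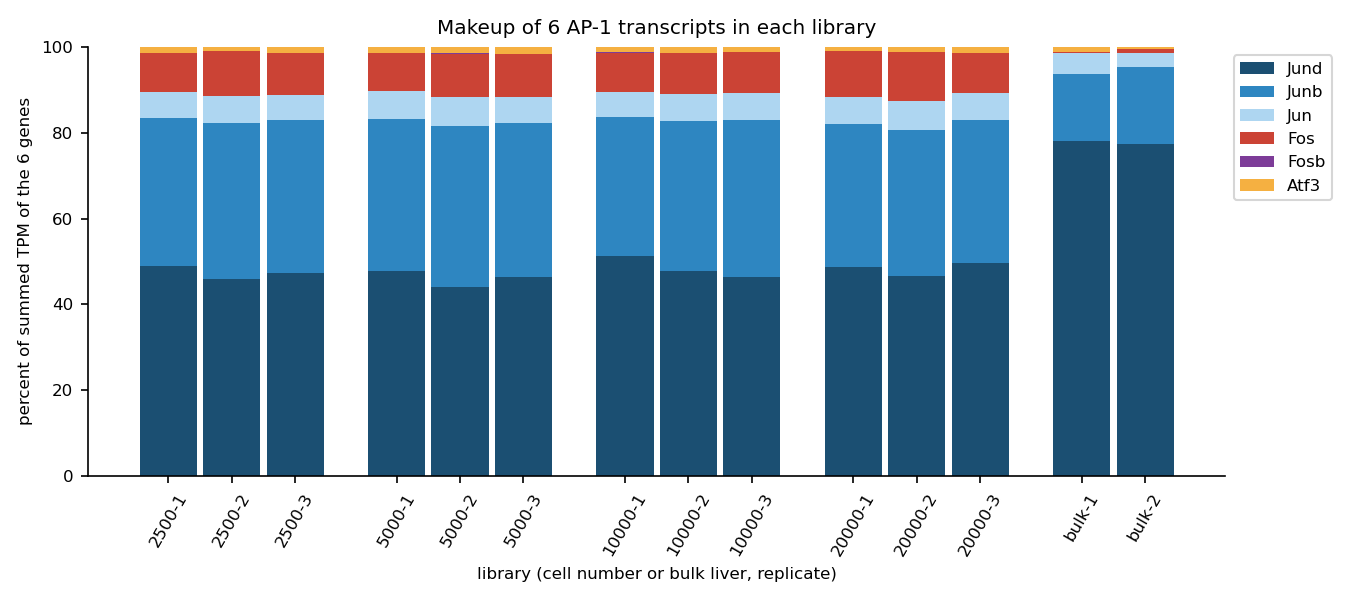
Percent of the summed TPM of 6 AP-1 transcripts (y axis) in each library (x axis), stacked by gene. Jund fills 44.0% to 51.2% of the sorted bars and 77.4% to 78.0% of the bulk bars, and the Fos band is wide only in the sorted libraries.

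The members were also set beside genes that leukocytes carry. Bulk TPM was 0.256% of the sorted mean for Nr4a1 and 0.347% for Fos, and for the 10 pan-leukocyte markers it ran between 0.188% (Coro1a) and 4.09% (Lcp1), with 0.292% for Ptprc. Junb, Atf3 and Jun lay inside that range too, at 2.70%, 3.59% and 3.65%. Ier2 (6.06%), Dusp1 (6.85%), Jund (9.18%) and Egr1 (16.8%) lay above it. Fosb, with 0 counts in bulk liver, cannot be placed, since its floor gives only at least 16.2-fold with library totals. Relative to sorted cells, bulk liver thus held more of Ier2, Dusp1, Jund and Egr1 than of any of these 10 pan-leukocyte markers. The overlapping genes named for Dusp1 and Jund limit those values. That range leaves out the 10 Kupffer cell markers, which summed to 422.92 to 800.21 TPM in sorted libraries and to 268.36 to 328.51 TPM in bulk liver. Which cells of bulk liver held these transcripts was not tested.

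Between cell numbers the 10 members did not pass the test in any comparison. With the 12 sorted libraries and 14795 genes, the edgeR test called 0 members between 2500 and 20000 cells, where it called 0.419% of all genes, and 0 between 5000 and 20000 cells, where it called 0.0879%. Between 10000 and 20000 cells it called 0 members (0.304% of all genes), for any difference among the 4 inputs 0 (0.297%), and for the slope on log2 cell number 0 (0.0811%). At an unadjusted p under 0.05 there were 1, 2 and 0 members in the 3 comparisons with 20000 cells and 3 for the slope, while 13.3%, 8.13%, 10.2% and 10.7% of all genes passed that mark. DESeq2 and limma-voom also called 0 members in each comparison with 20000 cells. These 3 comparisons share the libraries of 20000 cells.

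Fos came nearest for 2500 and for 5000 against 20000 cells and for the slope. Ier2 came nearest for 10000 against 20000 cells (edgeR adjusted p = 0.550), and Jund for any difference (edgeR adjusted p = 0.287). Fos had 132.11, 137.45 and 148.20 TPM at 2500 cells, 123.96, 134.10 and 138.53 at 5000, 157.33, 153.10 and 168.97 at 10000, and 171.30, 167.00 and 131.34 at 20000. Library 3 of 20000 cells lay among those of 2500 and 5000 cells, so these groups overlapped. Its log2 difference was -0.23 between 2500 and 20000 cells (95% interval -0.42 to -0.05, edgeR adjusted p = 0.266) and -0.24 between 5000 and 20000 cells (interval -0.43 to -0.05, adjusted p = 0.484). The slope was 0.08 per doubling of cell number (unadjusted p = 0.00754, edgeR adjusted p = 0.268). The intervals of the other members with over 100 counts in every sorted library reached at most 0.62 on the log2 scale in either direction, and those of Fosb, at 18 to 49 counts, reached -1.21.

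For any difference among the inputs, the calls of Jund and Egr1 changed with the analysis. Jund had 719.59, 609.64 and 718.62 TPM at 2500 cells, 678.54, 583.61 and 633.71 at 5000, 873.61, 761.24 and 822.83 at 10000, and 768.82, 685.46 and 700.51 at 20000. All 3 libraries of 10000 cells thus lay above all those of 2500 and 5000 cells in TPM. So did those of Fos, Jun and Junb, which makes 4 of 10 members, against 3.97% of 14795 genes. On CPM with TMM factors this held for 0 of 10 members, against 1.08% of the genes. The ordering was read from these members' values, and other orderings were not counted over all genes. For any difference among the inputs the edgeR adjusted p of Jund was 0.287, and 0.00527 with no filter on low counts. Egr1 had 42.76, 35.06 and 23.51 TPM at 2500 cells, 23.28, 31.34 and 22.39 at 5000, 37.26, 34.59 and 37.32 at 10000, and 28.49, 30.30 and 26.75 at 20000. Its library 3 of 2500 cells lay below the other two of that group. The edgeR adjusted p for any difference was 0.628, 0.0103 with no filter, and 0.0445 without that library.

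Replicates of a cell number agreed closely for most members. The SD of log2 CPM within an input was 0.09 for Ier2, 0.09 for Jun, 0.10 for Junb and 0.13 for Fos, against a median of 0.18 over 14795 genes. It was 0.22 for Atf3, 0.27 for Egr1 and 0.49 for Fosb. From the lowest to the highest of the 12 sorted libraries Ier2 differed 1.23-fold, Egr1 1.92-fold and Fosb 3.04-fold. Low counts go with wide spread in Fosb, and the part of depth in the spread of Egr1, at 491 to 1128 counts per sorted library, was not tested. Genes of like counts were not set beside the members.

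**Figure D4:**
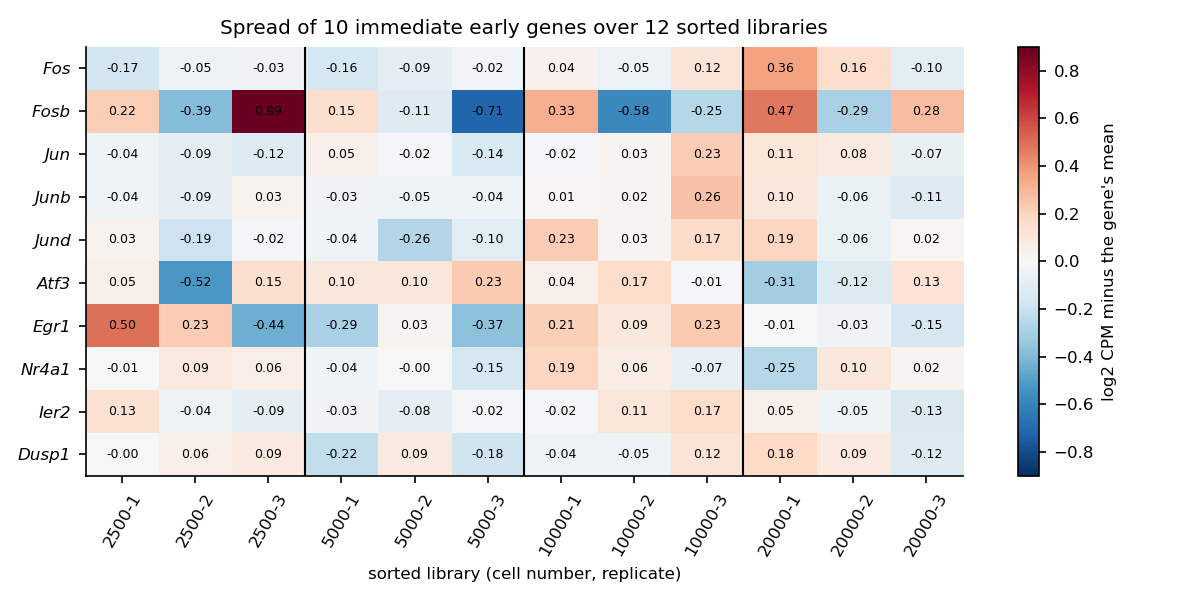
Log2 CPM of each member (rows) minus its mean over the 12 sorted libraries (columns, by cell number and replicate), as colour and number. Values run from -0.71 to 0.89 for Fosb and from -0.13 to 0.17 for Ier2.

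The genes whose pattern over the 12 sorted libraries was most like that of Fos were Pfdn1, Atp5f1, Rpp25l, Ms4a4b and Hypk. Likeness was the root-mean-square difference of centred log2 CPM among 9656 genes of at least 10 CPM, which was 0.0830 for Pfdn1 and 0.0884 for Hypk. Other members were farther: Dusp1 ranked 128, Jun 212, Junb 246, Jund 739, Ier2 1297, Nr4a1 5825, Egr1 8794 and Atf3 8886. On log2(TPM + 1) only Pfdn1 and Atp5f1 of the 5 stayed among the nearest 5.

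The wider circle of the response was described by lists of related genes, as counts called between sorted cells and bulk liver beside 41.8% higher and 38.5% lower over all genes. Library totals called 65.9% of all genes higher and 22.4% lower, and list counts with library totals stand against those shares. Of 33 other immediate early genes tested, 22 were higher, 6 lower and 5 not called, with a median log2 fold change of 1.42. Klf2, a factor of lymphocyte quiescence and homing, had 731.10, 808.965 and 935.08 TPM as the lowest, median and highest in sorted libraries, against 4.07 and 5.83 TPM in bulk liver (5.65, SE 0.11, edgeR adjusted p = 9.4e-20). Egr2 and Nr4a3, close relatives of Egr1 and Nr4a1, had 0 counts in bulk liver and were at least 18.9-fold and at least 4.26-fold higher. Ccn1 and Ccn2, matricellular proteins of adherent cells, were lower, at -8.03 and -4.72 (edgeR adjusted p = 5.2e-09 and 6.9e-07). Id2 had 581 TPM in sorted cells and 189 TPM in bulk liver and a fitted value of -0.12 (edgeR adjusted p = 0.181), which was 1.09 with library totals. Under library totals 28 were higher and 2 lower.

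Partners of AP-1 were called in shares near those of all genes under TMM scaling. Of 24 tested, 11 (45.8%) were higher, 8 (33.3%) lower and 5 not called, with a median of 0.23. With DESeq2 size factors 6 (25%) were higher and 8 (33.3%) lower, against 39.3% and 40.4% of all genes. Batf, the AP-1 partner of activated lymphocytes, and Bach2, a lymphocyte repressor that competes with AP-1, rose by log2 fold changes of 4.80 and 3.42 (edgeR adjusted p = 5.0e-11 and 5.6e-16). Atf5 and Crem were lower, at -2.95 and -2.24 (edgeR adjusted p = 1.1e-12 and 8.4e-11). Atf4, the translation-stress factor, was called lower at -0.65 and higher at 0.56 with library totals, under which the list had 18 higher and 3 lower. Of 11 relatives and co-regulators of NR4A and EGR factors, 7 were higher and 2 lower, with a median of 1.27. Those higher include the relatives Egr2, Egr3, Nr4a2 and Nr4a3, which the list of other immediate early genes also holds. Of the co-regulators, Rxrb, Hdac4 and Hdac7 were higher, Rxra and Nab2 lower, and Nab1 and Hdac5 not called. Rxra, the heterodimer partner of many nuclear receptors, fell by 3.76 (edgeR adjusted p = 9.8e-18), and the EGR repressor Nab2 was -1.08, or 0.12 with library totals, under which 9 were higher and 1 lower.

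Upstream, 13 of 18 serum response and CREB factors were higher and 2 lower, with a median of 0.62 (17 and 1 with library totals), and Mrtfa, the actin-regulated partner of SRF, was higher by 3.68 (edgeR adjusted p = 2.4e-15). Prkaca, a catalytic subunit of protein kinase A, fell by 1.50 (edgeR adjusted p = 1.8e-11). Of 24 MAP kinase cascade genes 12 were higher and 7 lower, with a median of 0.36 (20 and 1 with library totals). Mapk11 and Map3k8 rose by 4.87 and 3.46 (edgeR adjusted p = 5.1e-14 and 3.5e-13), and Hras fell by 1.66 (edgeR adjusted p = 1.1e-11). Map3k1 was the only gene of these lists called between inputs, at -0.44 for 5000 against 20000 cells (edgeR adjusted p = 0.0406).

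The brakes on the response were also described. Of 10 MAP kinase phosphatases, relatives of Dusp1, 7 were higher and 2 lower, with a median of 1.76, or 1.52 with bounds (8 and 0 with library totals). Dusp2, the phosphatase of activated lymphocytes, had 200.22, 248.205 and 281.48 TPM as the lowest, median and highest in sorted libraries, against 0.16 and 0.19 TPM in bulk liver. On 3 bulk counts its ratio was 602, with a counting interval of 206 to 2922. Dusp3 and Dusp16 were -1.20 and -1.05, both called lower, and 0.01 and 0.15 with library totals, where neither was called. Of 16 mRNA decay factors 10 were higher and 1 lower, with a median of 0.89 (16 and 0 with library totals). Zfp36, which binds AU-rich elements and hastens decay, rose by 2.42 and Btg2 by 4.09 (edgeR adjusted p = 1.9e-16 and 5.7e-19), while Tial1 was -0.78, or 0.42 with library totals.

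Of 20 NF-kappaB feedback and early inflammatory genes, 19 were higher and 1 lower, with a median of 3.91 (3.88 with bounds). Nfkbia, the inhibitor of NF-kappaB, rose by 1.88 and Cd69, an early activation and tissue-retention marker, by 7.47 (edgeR adjusted p = 1.4e-14 and 2.3e-18). Cxcl1, a chemokine made by hepatocytes among others, fell by 8.50 (edgeR adjusted p = 7.6e-09). Most heat shock and stress genes were lower: of 19 tested, 3 were higher, 15 lower and 1 not called, with a median of -1.54, and 6 higher and 11 lower with library totals. Hspb1 and Hspe1 were lower, at -7.20 and -3.66, and Hspa1a rose by 2.56 on 4 bulk counts (edgeR adjusted p = 2.3e-12, 4.3e-19 and 0.00036). Hspa1b, of the same list, went the other way, at -2.08 (edgeR adjusted p = 2.0e-06), and at -0.88 with library totals.

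**Figure D5:**
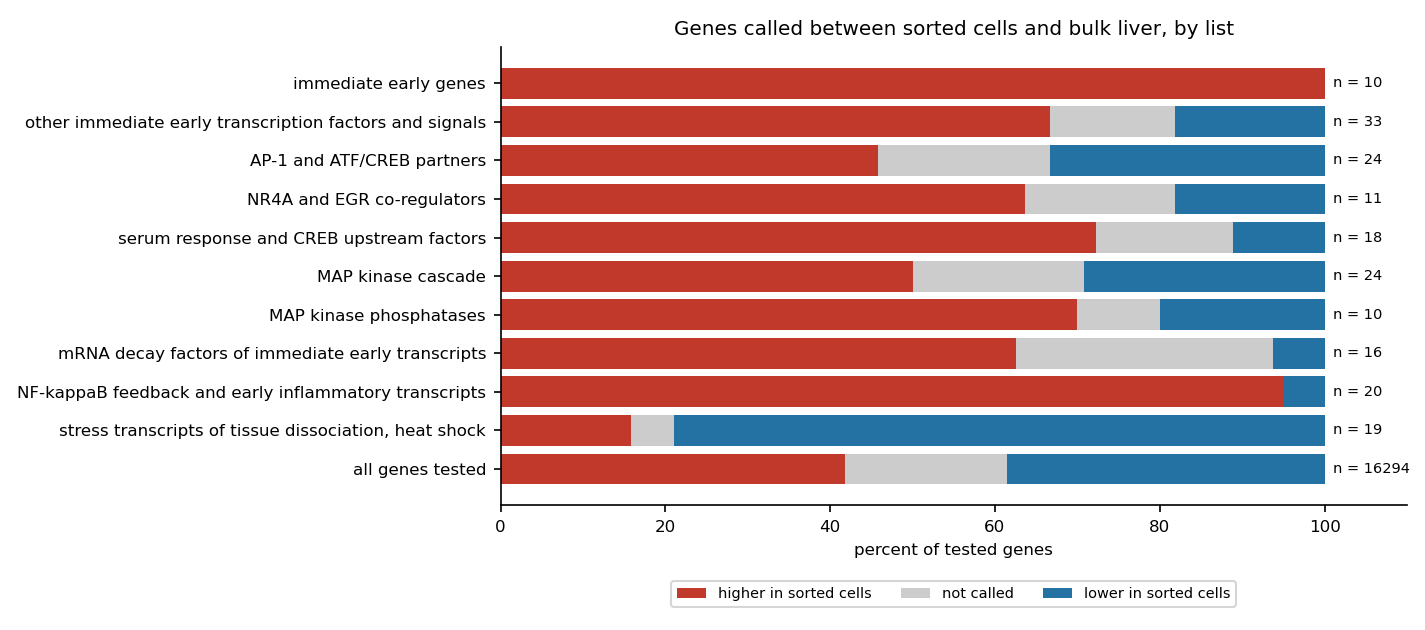
Percent of tested genes in each list (rows) called higher, not called or called lower in sorted cells against bulk liver under TMM scaling (x axis), with all 16294 genes in the bottom row. The immediate early genes were all called higher, and the heat shock list has the widest lower share.

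Values of other cell types that moved between inputs are given beside the member results. Of the 10 Kupffer cell markers 2, Cd5l and C1qa, were higher at 2500 than at 20000 cells (log2 0.67 and 0.62, edgeR adjusted p = 0.0436 and 0.0285), and the monocyte marker Ly6c2 was lower (-0.31, edgeR adjusted p = 0.0334). At 10000 against 20000 cells the Kupffer marker C1qc was higher (0.67, edgeR adjusted p = 0.0315), while Ly6c2 and the neutrophil marker Retnlg were lower (-0.41 and -1.20, edgeR adjusted p = 0.00454 and 0.0439). The summed Kupffer markers ranged from 422.92 to 800.21 TPM and the summed neutrophil markers from 1912.07 to 4167.40 TPM over the sorted libraries, against 268.36 to 328.51 and 4.68 to 4.89 TPM in bulk liver. By the edgeR test 9 of 10 Kupffer markers were lower in sorted cells than in bulk liver and 1 was higher, while with library totals 0 were lower and 6 higher. Sinusoidal endothelium markers summed to 212.89 to 257.17 TPM in sorted libraries and to 105.31 to 111.86 TPM in bulk liver, although 6 of 8 were called lower and 2 higher. The neutrophil markers Ly6g and Camp were at 0 in bulk liver. The part of such shifts in the members' values was not tested.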

How the data were processed

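RNA had been sequenced from 12 libraries of sorted CD45+ liver cells and 2 of bulk liver. Per the labels' protocols, total RNA was turned into cDNA with SMART-seq v4 and tagmented. The authors deposited raw counts per gene as whole numbers and TPM values for 48794 genes, 1 column per library; another deposited table holds a variance-stabilised score and was not analysed here. The tools named in the submitters' processing notes are DESeq2 1.34.0, FastQC 0.11.5, featureCounts 1.5.1, RSEM 1.3.0 and STAR 2.5.2b, on GRCm38; their roles and the strand setting are not given in the sources used here. Columns left unmapped numbered 0, and 48348 IDs had a symbol.

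Counts were tested with edgeR 4.0.16 (R 4.3.3; robust quasi-likelihood fit, TMM factors, filterByExpr by group), Benjamini-Hochberg adjusted at 0.05. The fit on 14 libraries set the mean of the 4 sorted groups, and each group, against bulk liver; the fit on 12 sorted libraries set 3 inputs against 20000 cells and tested any difference and the slope on log2 cell number. SE is the log2 fold change over the root of F. Levels are TPM. Zero bulk counts were set to a floor of 3 counts over both libraries, and 1 to 3 counts got a 95% counting interval. Alternatives were other scalings and filters, DESeq2 1.42.0, limma 3.58.1 (voom, or log2(TPM + 1)), a replicate block and each library left out. The fits were also run on simulated counts, in which all libraries shared a mean profile apart from a limited set of changed genes. The wide difference in makeup between sorted cells and bulk liver was not simulated.

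From each list, genes named were the 2 with the highest sorted TPM and the 2 with the highest and lowest called fold change. All members, the 5 most like Fos, any list gene called between inputs, and Hspa1b beside Hspa1a were named too. The text gives examples from these. The members and lists were chosen with earlier results of these data known.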

Additional observations from a re-analysis of the deposited data

How the results depend on the processing

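For sorted cells against bulk liver, all 10 members were called higher under every alternative run, with or without any library. The ratio of mean Fos levels, sorted over bulk, was 367 by CPM with library totals and 159 by CPM with TMM factors. The members' share was 0.297% of all counts in sorted libraries and 0.0231% in bulk liver. Egr1 was the only member to lose a call against bulk liver, at 5000 and 20000 cells, leaving 9 called.

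Counts of all genes called between inputs varied more. For 2500 against 20000 cells they were 62 in the fit reported, 397 with no filter, 272 with DESeq2, 37 with voom, 7 on TPM and 17 with only both inputs, and 19 to 67 with a library left out. For 5000 cells they were 13, 203, 87, 1 (TPM), 22 (all 14 libraries), 69 (both inputs) and 6 to 29. For 10000 cells they were 45, 21 (library totals), 286, 181, 22 (voom), 2 (TPM), 175 (both inputs) and 7 to 114. For any difference they were 44, 605, 303, 28 (voom), 5 (TPM) and 20 to 104, and for the slope 12, 19, 122, 4 (voom), 0 (TPM) and 0 to 10. The number of members called for any difference was 0, but 2 with no filter (Jund and Egr1), 1 with the replicate block (Jund, edgeR adjusted p = 0.0236) and 0 to 1 with a library left out. The replicate block called 0 genes for the slope. Libraries with the same number deviated with correlations of -0.0997 to 0.0861 over the genes of the fit. Pairing by number was thus not seen at that level, but libraries of unlike number were not compared. Whether the same number means a shared source was not tested. The cause of these moves was not tested. Depth limits Fosb everywhere and Fos, Nr4a1 and Atf3 in bulk liver.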
